A study of Mus musculus with 4 samples.

Results

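The subtelomeric ends of the mouse autosomes were read here as the last 500 kb before the highest listed CpG position of each of chromosomes 1 to 19. Fixed windows of 1 kb with at least 5 listed CpGs were the members. There were 3531 such windows, of 1223928 windows with at least 5 listed CpGs in the series. The choice used positions and CpG numbers and no methylation value. The study compared mouse E14Tg2a embryonic stem cells, a male line, as wild type (WT) and with Tet1, Tet2 and Tet3 mutated (TetTKO). Each genotype had 1 whole-genome bisulfite library and 1 RNA-seq library, 4 libraries in all. TetTKO cells were made by CRISPR with the Cas9 plasmid px330 and guides against all 3 genes, and came from picked clones in which mass spectrometry found no 5-hydroxymethylcytosine. Both lines were kept on gelatin and adapted for at least 17 days to medium with 15% serum and LIF before harvest. A difference between the lines can therefore also hold the history of a clone, and the 2 cannot be told apart here.

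In mice the centromere lies at one end of each chromosome, so the highest position of the assembly stands near the telomere of the long arm. Chromatin near telomeres carries heterochromatin marks and DNA methylation, which the DNA methyltransferases Dnmt1, Dnmt3a and Dnmt3b lay down. Tet enzymes oxidise 5-methylcytosine to 5-hydroxymethylcytosine and further forms, and TRF1 and TRF2 (genes Terf1 and Terf2) bind the telomere repeat itself. Bisulfite sequencing reads 5-methylcytosine and 5-hydroxymethylcytosine alike, so a methylation level below is their sum.

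The level of a CpG was the percentage of its reads that were methylated, and the level of a window was the mean over its listed CpGs. With 1 library per genotype no value has a replicate check, and no test between genotypes was possible. An SD over chromosomes states how even a value was along the genome and is not an error between cultures. The genes and windows were on build mm9. No genome of that build was used here, so exon and intron positions are not given, and the promoters shown come from RefSeq on GRCm38.p6. Of 145 genes that overlapped the ends, 96 had an entry in the RefSeq promoter table and 49 did not. Promoters of 57 of these genes were placed in the mm9 ends by matching at least 5 listed CpGs to the order and spacing of the CG dinucleotides.

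These 6 promoters were picked after their values were seen, from different chromosomes. Each holds 300 bases, 250 before and 50 after the RefSeq start of the gene. Each runs 5′ to 3′ on the strand of the gene, with every CG dinucleotide in capitals. Only CGs that are listed CpGs have values, and these are not marked apart. Listed were 13 of 14 in Cr2, 7 of 8 in Mxra8 and 7 of 13 in Tmem196. In Wls 11 of 11 were listed, in Csf2ra 13 of 23 and in Polr3k 18 of 18. Cr2 (a complement receptor), Mxra8 (a cell adhesion protein), Tmem196 (a transmembrane protein) and Wls (a carrier that Wnt proteins need to leave the cell) were higher in TetTKO. Csf2ra (a subunit of the GM-CSF receptor) was the one lower by 10 points, and Polr3k (a subunit of RNA polymerase III) had no methylated read in either library.
Cr2 promoter, chr1:195176670-195176969, minus strand: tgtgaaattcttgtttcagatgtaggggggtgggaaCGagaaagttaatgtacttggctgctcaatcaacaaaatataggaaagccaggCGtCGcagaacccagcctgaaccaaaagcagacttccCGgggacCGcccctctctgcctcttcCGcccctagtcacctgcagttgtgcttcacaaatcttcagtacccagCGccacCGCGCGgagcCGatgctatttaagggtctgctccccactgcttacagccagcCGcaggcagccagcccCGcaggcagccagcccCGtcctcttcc
Mxra8 promoter, chr4:155839430-155839729, plus strand: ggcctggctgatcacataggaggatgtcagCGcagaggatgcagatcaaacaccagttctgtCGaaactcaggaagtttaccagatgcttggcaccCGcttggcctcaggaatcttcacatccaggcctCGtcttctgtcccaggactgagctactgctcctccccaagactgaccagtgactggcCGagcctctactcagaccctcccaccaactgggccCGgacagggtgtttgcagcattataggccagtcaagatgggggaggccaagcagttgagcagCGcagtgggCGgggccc
Tmem196 promoter, chr12:119945877-119946176, plus strand: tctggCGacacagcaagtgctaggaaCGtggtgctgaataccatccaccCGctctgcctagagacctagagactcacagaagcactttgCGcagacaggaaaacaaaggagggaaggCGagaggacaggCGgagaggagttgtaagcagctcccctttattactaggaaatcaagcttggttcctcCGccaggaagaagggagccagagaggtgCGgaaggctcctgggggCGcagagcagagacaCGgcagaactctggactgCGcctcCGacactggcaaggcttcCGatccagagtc
Wls promoter, chr3:159839400-159839699, plus strand: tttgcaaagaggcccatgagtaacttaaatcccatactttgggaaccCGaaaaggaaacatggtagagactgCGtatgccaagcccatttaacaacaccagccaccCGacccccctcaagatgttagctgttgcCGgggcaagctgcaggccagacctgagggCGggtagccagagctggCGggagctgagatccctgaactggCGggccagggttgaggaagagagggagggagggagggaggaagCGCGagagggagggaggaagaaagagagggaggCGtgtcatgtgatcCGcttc
Csf2ra promoter, chr19:61228369-61228668, minus strand: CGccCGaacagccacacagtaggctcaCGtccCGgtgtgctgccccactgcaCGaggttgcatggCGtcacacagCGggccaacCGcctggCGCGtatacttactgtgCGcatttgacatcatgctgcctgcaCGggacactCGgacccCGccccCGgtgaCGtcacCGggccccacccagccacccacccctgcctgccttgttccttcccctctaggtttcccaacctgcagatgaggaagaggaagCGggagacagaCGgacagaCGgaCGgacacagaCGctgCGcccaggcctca
Polr3k promoter, chr2:181864110-181864409, plus strand: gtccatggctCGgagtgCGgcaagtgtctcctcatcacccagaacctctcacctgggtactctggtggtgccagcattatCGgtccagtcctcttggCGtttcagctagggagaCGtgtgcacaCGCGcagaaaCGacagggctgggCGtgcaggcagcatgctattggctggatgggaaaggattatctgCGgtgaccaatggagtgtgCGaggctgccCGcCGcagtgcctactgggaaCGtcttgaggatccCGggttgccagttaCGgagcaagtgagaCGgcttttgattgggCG

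Mean methylation of the 3531 end windows was 69.6% in WT and 64.4% in TetTKO. The mean difference, TetTKO minus WT, was -5.19 percentage points (SD 11.2 over windows). The end was lower in TetTKO on 19 of 19 autosomes, with a mean over chromosomes of 70.9% ± 5.65 in WT and 65.0% ± 4.14 in TetTKO (SD, n = 19 chromosomes). The difference over chromosomes was -5.91 ± 2.38 points. Of the windows, 70.9% were lower in TetTKO, beside 72.2% in the rest of the same autosomes. Windows above 80% methylation made up 39.7% of the ends in WT and 14.02% in TetTKO. Windows below 10% numbered 175 in WT (4.96%) and 130 in TetTKO (3.68%). So the most methylated and the least methylated windows both became fewer at the ends, and the same was seen in the rest of the autosomes. There, windows above 80% went from 49.8% to 19.9% and those below 10% from 2.58% to 1.76%.

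The rest of the same autosomes, 1214368 windows, stood at 74.2% in WT and 69.2% in TetTKO and so fell by 5.09 points. Per chromosome, the WT end stood below its own interior by a mean of -3.37 ± 5.17 points (SD, n = 19) and was below it on 15 chromosomes. In TetTKO this gap was -4.19 ± 3.81 points, with 18 chromosomes below. The change of the end minus the change of its interior averaged -0.822 ± 2.33 points, below 0 on 15 of 19 chromosomes and from -4.70 on chromosome 17 to 4.05 on chromosome 4. Its mean was smaller than its spread over chromosomes. The neighbouring stretch, 500 kb to 1 Mb from the highest position, fell by 5.36 points, from 71.7% to 66.3% over 4076 windows. The opposite side of the chromosomes, the first 500 kb from the lowest listed position, fell by 4.87 points, from 73.2% to 68.3% over 4355 windows. Coverage there was 38.8 reads per CpG in WT and 42.5 in TetTKO, against 9.38 and 10.7 at the ends studied here, and the part of that excess in the level was not tested.

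The ends held fewer usable windows than the interior. Of 9500 windows of 1 kb, 3531 or 37.2% had at least 5 listed CpGs, against 50.5% of the interior. Listed CpGs numbered 45555, or 4.80 per kb, against 5.87 per kb inside. The member windows held 33485 CpGs with 314238 read calls in WT and 357595 in TetTKO. The deposit lists only CpGs with at least 5 reads in each library, and the coverage of 9.38 and 10.7 reads per CpG was close to the 9.42 and 10.6 of the interior. Pooled over all read calls, 59.6% were methylated in WT (exact 95% binomial interval 59.4 to 59.8) and 56.2% in TetTKO (56.0 to 56.3). These levels are lower than the means over windows because windows rich in CpGs weigh more in them. All such intervals cover counting error only and are too narrow, since 1 read can cover several CpGs and PCR copies are not independent. Of the CpGs in the ends, 62 in WT and 49 in TetTKO had over 3 times the median coverage, 38 and 43 of them on chromosome 9. That stretch covered 5 windows between 123833000 and 123844999.

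The ends of chromosomes 4, 7 and 15 changed least. The end of chromosome 4 had 59.2% in WT and 58.7% in TetTKO over 347 windows, a difference of -0.495 points. The end of chromosome 15 went from 59.1% to 58.1% over 255 windows, and that of chromosome 7 from 62.5% to 60.8% over 326 windows. These were the 3 lowest WT levels of any end. Together they held 928 windows, of which 91 (9.81%) were below 10% in WT, against 84 (3.23%) of the 2603 windows of the other 16 ends. Windows with at least 25 CpGs numbered 67 on these 3 ends and 58 on the other 16. Windows with fewer than 15 CpGs changed little there too. On chromosome 4 such windows went from 65.2% to 64.0% (249 windows), on chromosome 7 from 66.6% to 64.4% (294) and on chromosome 15 from 66.5% to 64.1% (217). Windows of that density on the other 16 ends went from 75.1% to 67.9% (2410 windows). These 3 ends were picked for their small change, and windows of that density are most of their members. The comparison is thus no separate check, and the part of CpG number in the small change was not tested.

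**Figure D1:**
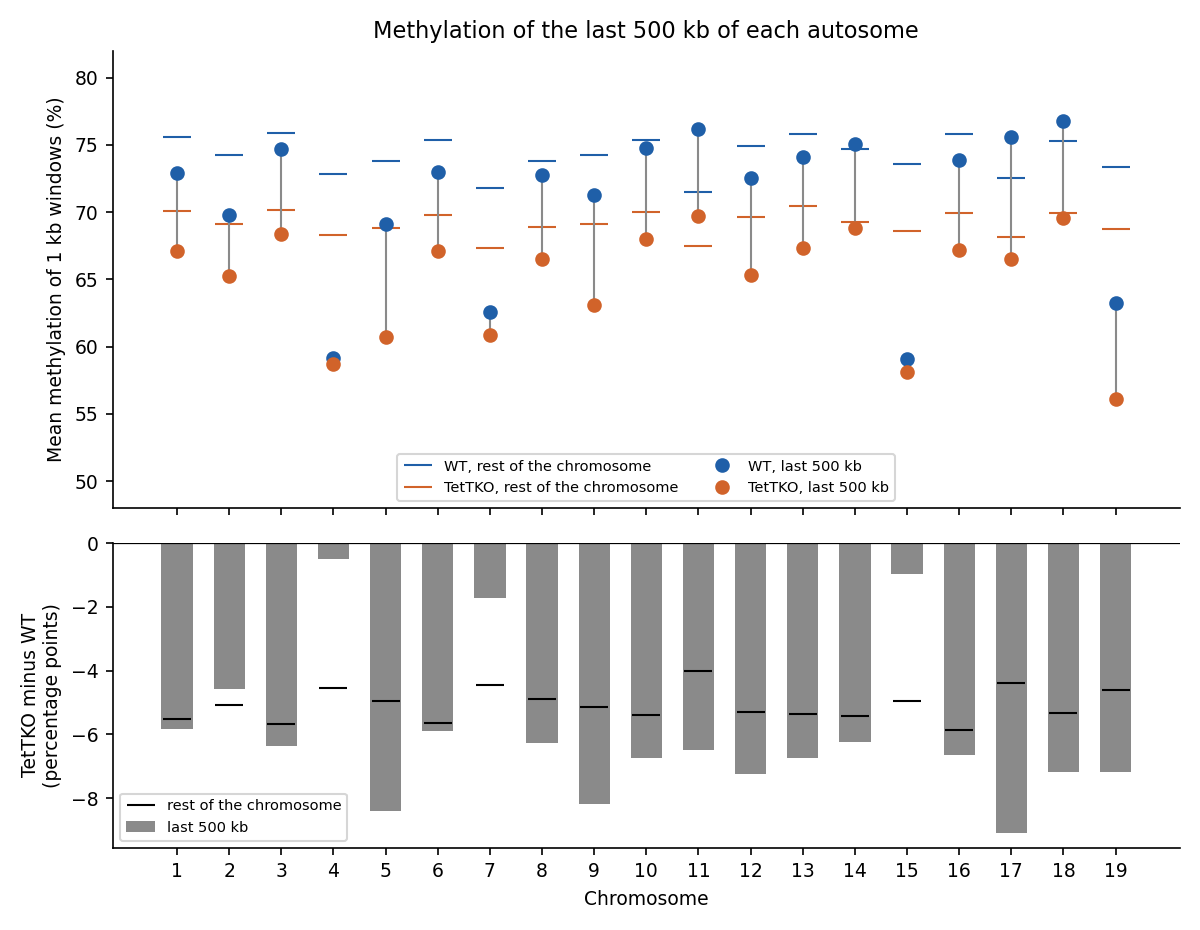
Mean methylation in percent of the windows in the last 500 kb of each autosome (points; WT blue, TetTKO orange) and in the rest of the chromosome (short lines), on an axis that does not start at 0, above the TetTKO minus WT difference in percentage points (bars for the ends, black lines for the rest). Each value is from 1 library per genotype; the bars of chromosomes 4, 7 and 15 are the shortest, at -0.495, -1.71 and -0.976 points, and the black lines lie between -5.85 and -4.02.

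The largest falls were on chromosomes 17, 5 and 9. The end of chromosome 17 fell by 9.10 points, from 75.6% to 66.5% (171 windows). The end of chromosome 5 fell by 8.40 points, from 69.1% to 60.7% (142 windows), and that of chromosome 9 fell by 8.19 points, from 71.3% to 63.1% (128 windows). The interior of the 19 chromosomes spanned only -5.85 to -4.02 points, an SD of 0.495, against 2.38 for the ends. The ends are much shorter than the interiors. Beside 4691 interior blocks of the same length, whose differences ran from -10.002 at the 5th percentile to -1.29 at the 95th with a median of -6.12, no end lay below that range. The ends of chromosomes 4 and 15 lay above it.

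The end of chromosome 19 was low in both libraries, at 63.3% in WT and 56.1% in TetTKO (128 windows), and fell by 7.17 points. It was the lowest of all ends in TetTKO. The ends of chromosomes 4, 7, 15 and 19 lay below the 5th percentile of the WT level of interior blocks, 64.2%. In TetTKO the same 4 and chromosome 5 lay below the 5th percentile of 61.4%.

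The other 12 ends fell by 4.57 to 7.24 points. The highest WT level was on chromosome 18, which went from 76.8% to 69.6% (139 windows). Chromosome 11 went from 76.2% to 69.7% (288 windows) and chromosome 14 from 75.1% to 68.8% (76 windows, the fewest). Both stayed among the highest in TetTKO. Chromosome 3 went from 74.7% to 68.4% (99 windows), chromosome 10 from 74.7% to 68.0% (120) and chromosome 13 from 74.1% to 67.4% (224). Chromosome 16 went from 73.9% to 67.2% (225 windows), and chromosome 6 from 73.0% to 67.1% (236). The end of chromosome 6 had 13.1 reads per CpG in WT, more than any other end, against 8.44 to 11.2 elsewhere, and 11.05 in TetTKO. This was not particular to the end, since the rest of chromosome 6 had 12.03 in WT and 10.14 in TetTKO. The end of chromosome 6 fell by 5.89 points, inside the range of the others. Chromosome 1 went from 72.9% to 67.1% (155 windows), chromosome 8 from 72.8% to 66.5% (117) and chromosome 12 from 72.6% to 65.3% (79). Chromosome 2 fell least of these 12, from 69.8% to 65.2% (276 windows), and had 20 windows below 10% in WT. Setting aside chromosomes 4, 7, 15 and 19, WT ends lay within 69.1 and 76.8%.

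Across the 19 chromosomes the difference rose with the mean number of CpGs per window, with Pearson's r 0.731 and Spearman's rho 0.504. Without chromosomes 2 and 4, the 2 farthest in CpG number, r was 0.558. Against the share of windows below 10% in WT, r was 0.703 and rho 0.412, and r was 0.355 without chromosomes 4 and 15. Against coverage, r was -0.071 for WT and -0.198 for TetTKO. These values describe 19 points that share the same 2 libraries and carry no test.

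By distance, each step of 100 kb was lower in TetTKO, and no step stood apart from its neighbour by more than the spread over chromosomes. The outermost 100 kb went from 70.4% to 65.5% over 715 windows, and the chromosomes averaged -5.38 ± 3.09 points (SD, n = 19), with 18 lower. The step from 100 to 200 kb went from 70.7% to 65.1% (669 windows), with -6.04 ± 3.25 points over chromosomes. The step from 200 to 300 kb was the highest in both libraries, at 73.2% and 66.7% (663 windows). It was lower in TetTKO on 19 of 19 chromosomes, with -7.05 ± 2.12 points over chromosomes. Coverage hardly moved with distance, at 9.10 to 9.67 reads per CpG in WT and 10.4 to 11.2 in TetTKO.

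The innermost steps were richer in CpGs, and the step from 400 to 500 kb was less methylated. From 300 to 400 kb the level went from 70.1% to 64.9% (726 windows), with -6.13 ± 2.70 points over chromosomes. From 400 to 500 kb it went from 64.5% to 60.6% (758 windows), or -3.92 points over windows, the smallest fall of any step. Over chromosomes the difference there was -5.88 ± 4.60 points, and 16 of 19 chromosomes were lower. The mean of the chromosome levels there was 69.1% in WT and 63.3% in TetTKO. This step held 10.4 CpGs per window, against 8.44 in the step from 200 to 300 kb, and 64 windows below 10% in WT, against 17. The 3 chromosomes that were higher there were 4 (47.3% to 48.9%, 67 windows), 7 (45.9% to 47.9%, 79 windows) and 15 (48.7% to 52.3%, 74 windows). The outermost 100 kb of chromosome 15 went the other way, from 80.8% to 74.0% (24 windows).

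Within a step single chromosomes rested on few windows. In the outermost 100 kb the lowest difference was -11.3 points on chromosome 3 (18 windows) and the highest was 0.340 on chromosome 1 (31 windows). From 400 to 500 kb the lowest was -13.2 points on chromosome 14 (12 windows) and the highest 3.58 on chromosome 15. Just inside the border, 450 to 500 kb from the highest position, 388 windows went from 64.6% to 61.1%, and just outside it, 500 to 550 kb, 405 windows went from 68.9% to 64.7%. The fall was -3.43 and -4.26 points on the 2 sides.

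**Figure D2:**
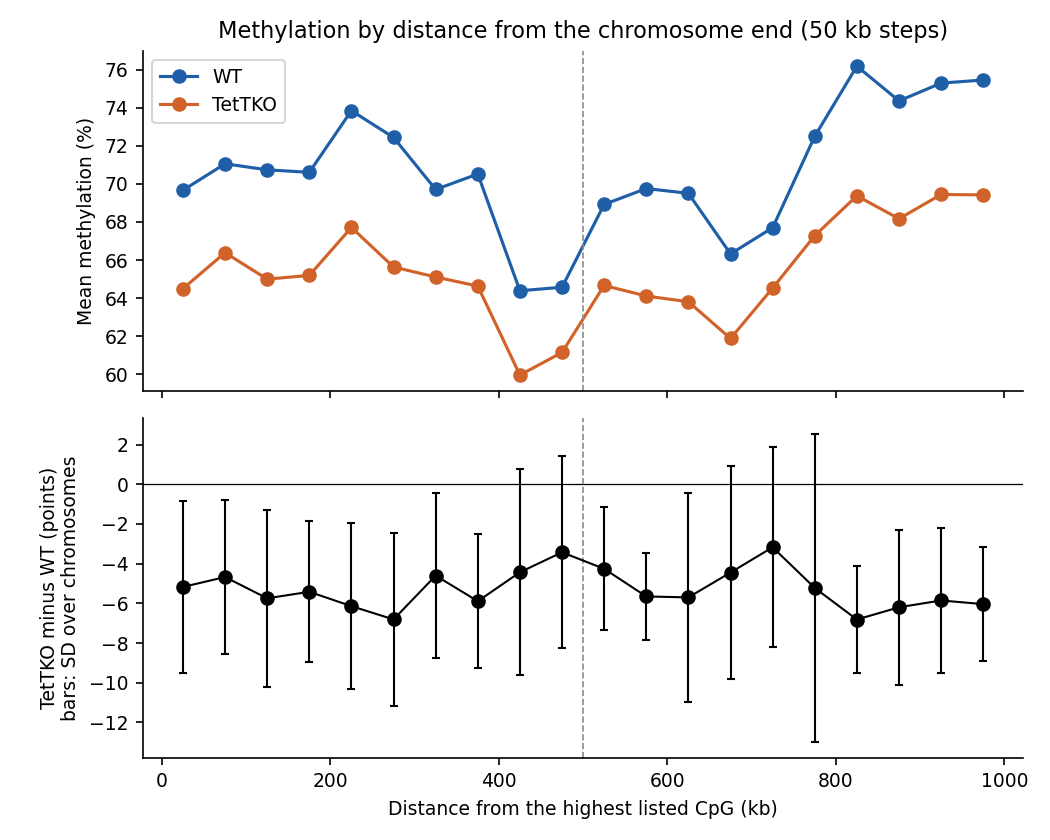
Mean methylation of 1 kb windows in percent in WT (blue) and TetTKO (orange), on an axis that does not start at 0, and the TetTKO minus WT difference in percentage points (mean over windows, bars the SD over chromosomes), against distance from the highest listed CpG in steps of 50 kb. The dashed line at 500 kb marks the border of the ends; the TetTKO line lies below the WT line in every step shown, and the bars of neighbouring steps overlap.

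The highest member window of each chromosome, 0 to 16 kb from the highest listed position, did not share one direction. These 19 windows had 38.7 to 94.8% in WT with a median of 75.6, and 44.5 to 85.5% in TetTKO with a median of 74.1. Of them, 10 were lower and 9 higher in TetTKO. The largest rise was on chromosome 14 (125179000 to 125179999, 8 CpGs), from 46.2% to 70.6%, where WT had 21 methylated reads of 46 (exact 95% interval 30.9 to 61.0%) and TetTKO had 45 of 63 (58.7 to 82.1%). The largest fall was on chromosome 10 (129991000 to 129991999, 7 CpGs), from 94.8% to 75.3%, with 57 of 60 and 45 of 59 reads methylated. For both windows the counting intervals of the libraries overlap.

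By the mean, windows with few CpGs were lower in TetTKO and windows with many were higher, at the ends as in the interior. With 5 to 9 CpGs, 2549 end windows went from 73.7% to 67.1%, a difference of -6.60 points, against -6.68 in the interior. With 10 to 14 CpGs, 621 windows went from 69.8% to 66.4%, or -3.33 points against -3.68. With 15 to 24 CpGs, 236 windows went from 54.6% to 55.4%, or 0.795 points against 0.168. The 125 windows with at least 25 CpGs, the density of CpG islands, went from 13.6% to 16.5%, or 2.92 points against 3.95. The sign of the mean change therefore turned between 10 and 24 CpGs in both places. Yet with 15 to 24 CpGs 50.4% of end windows and 56.0% of interior windows were lower in TetTKO. The medians of that class fell too, from 70.0% to 68.6% at the ends and from 76.7% to 73.0% inside. From the fewest CpGs to the most, the SD over chromosomes at the ends was 2.22, 2.42, 4.69 and 3.95 points.

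The ends differed from the interior in level and make-up more than in change. In the class of 15 to 24 CpGs the WT level was 54.6% at the ends and 66.0% inside, and 16.5% of end windows were below 10%, against 5.51%. With 5 to 9 CpGs the WT levels were 73.7% and 77.2%. Windows with 5 to 9 CpGs made up 72.2% of the end windows and 64.5% of the others, and those with at least 25 made up 3.54% and 2.24%. When the interior was weighted to the CpG numbers of each end, the WT gap was -3.60 ± 3.77 points (SD, n = 19, 17 chromosomes below) and the gap in change was -0.258 ± 1.82 points, with 11 of 19 below 0. At the lower border of the CpG rule, 817 windows with 5 CpGs went from 74.3% to 66.4%. Windows with 4 CpGs, which were no members, numbered 1113 and went from 74.4% to 65.5%.

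**Figure D3:**
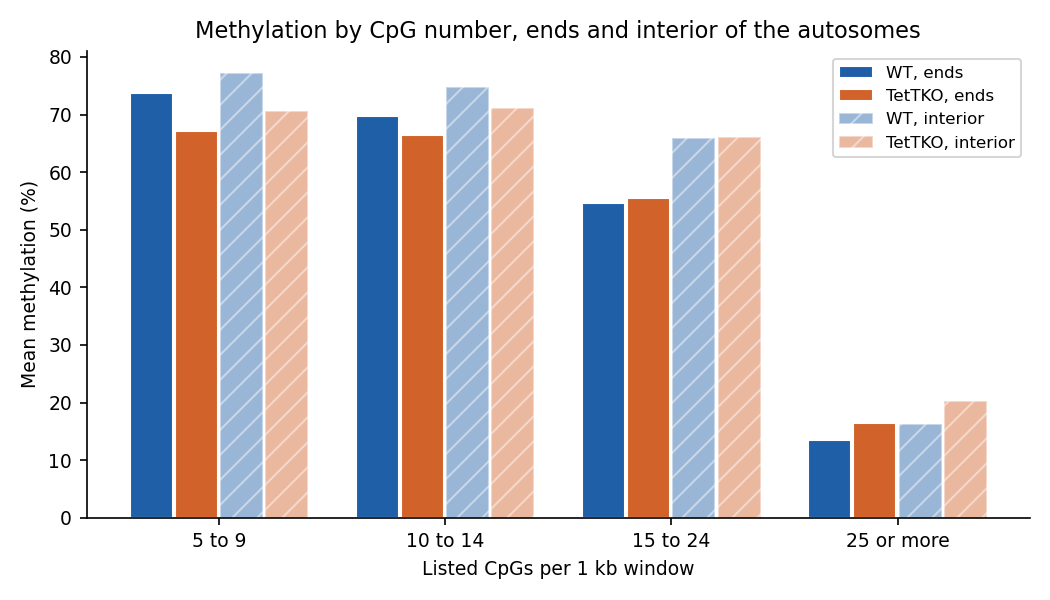
Mean methylation in percent of end windows (plain bars) and interior windows (hatched bars) in WT (blue) and TetTKO (orange), by the number of listed CpGs per 1 kb window, from 1 library per genotype. At the ends WT exceeds TetTKO at 5 to 9 CpGs (73.7% and 67.1%) and lies below it at 25 or more (13.6% and 16.5%), and the order is the same in the interior.

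By WT level, low windows were higher in TetTKO and high windows lower. To limit regression to the mean, the class came from the odd-numbered CpGs of a window and the values from the even-numbered ones. The 180 end windows below 10% went from 3.87% to 8.96%, higher on 15 of 18 chromosomes, with a difference of 5.08 points against 5.42 in the interior. The 346 windows of 10 to 50% went from 41.0% to 46.8%, or 5.81 points against 9.15. Within this class the 63 windows with at least 15 CpGs went from 24.9% to 35.3%. The 1550 windows of 50 to 80% went from 72.9% to 67.2%, or -5.71 points against -4.47. The 1455 windows above 80% went from 81.3% to 72.8%, or -8.51 ± 1.03 points (SD, n = 19 chromosomes) against -8.19. Both upper classes were lower on 19 of 19 chromosomes.

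Windows outside genes made up 55.7% of the ends (1966 windows) and went from 71.5% to 65.9%. The 485 windows in genes under 1 FPKM in the WT RNA library went from 68.2% to 63.4%, and the 1080 in genes of at least 1 FPKM in WT went from 66.9% to 62.4%. FPKM counts RNA fragments relative to how long the transcript is and how many reads of that library were mapped. The differences were -5.65, -4.83 and -4.53 points, and the windows held 8.27, 10.2 and 11.4 CpGs on average. Among windows with fewer than 15 CpGs the 3 differences were -6.17, -6.27 and -5.39 points.

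Single windows that moved by at least 30 points were as rare as elsewhere. At the ends 24 windows rose by that much, 0.680% of the members, beside 0.667% of all autosomal windows. Another 27 fell by that much, 0.765%, beside 0.63%. These shares lie near the background and are no result about the ends. At 20 points 90 windows rose and 253 fell, beside 2.39% and 6.39% of all autosomal windows. The 24 gains lay on 10 chromosomes, went from a mean of 24.5% to 61.3% and had a median of 7.5 CpGs, with 18 below 10 CpGs. The 27 losses lay on 16 chromosomes, went from 85.9% to 52.1% and had a median of 6 CpGs, with 26 below 10. Chromosomes 4, 7 and 15 held 13 of the gains and 2 of the losses among 928 windows, and the other 16 ends held 11 and 25 among 2603. These 3 ends were picked by the same differences, so the counts are no separate result.

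With 10 to 14, 15 to 24 and at least 25 CpGs, 0.644%, 0.847% and 0% of end windows gained 30 points. In the interior 0.846%, 1.62% and 1.04% did, so gains were no more frequent at the ends. Losses made up 0.161%, 0% and 0% at the ends, against 0.100%, 0.044% and 0.018% inside. Among the 979 end windows with at least 10 CpGs and at least 60 reads in each library, 6 gained and 1 lost 30 points. The largest gain was on chromosome 7 (152363000 to 152363999, 160 kb from the highest position and 27724 bp from the nearest gene, 1810010D01Rik), from 27.5% to 70.7% over 13 CpGs. WT had 33 methylated reads of 112 (exact 95% interval 21.2 to 38.8%), and TetTKO had 74 of 105 (60.8 to 79.0%). Of its CpGs 12 were higher and none lower, and the 3 at 0 in WT were above 0 in TetTKO. The window on chromosome 3 (159109000 to 159109999) lay 48398 bp from Depdc1a, a cell division gene, and went from 42.9% to 78.6% over 20 CpGs, with 17 higher and 3 lower.

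Others lay in genes. In Cbx5, which encodes the heterochromatin protein HP1 alpha, the window on chromosome 15 from 103068000 to 103068999 went from 6.28% to 41.7%, with all 11 CpGs higher. There 7 of 93 reads were methylated in WT (3.08 to 14.9%) and 46 of 113 in TetTKO (31.6 to 50.4%). Cbx5 mRNA was 68.4 FPKM in WT and 69.6 in TetTKO. In Pde1b, a cyclic nucleotide phosphodiesterase, the window from 103351000 to 103351999 on the same chromosome went from 28.6% to 58.9%, with all 11 CpGs higher. In Tbcd, a tubulin folding cofactor on chromosome 11, the window from 121381000 to 121381999 went from 21.8% to 55.0%. A window on chromosome 17 (94935000 to 94935999), far from any gene, went from 28.7% to 64.2%. In all 6 windows the counting intervals of the 2 libraries did not overlap, and these windows were chosen for their size of change.

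The largest losses came from highly methylated windows, mostly inside genes. In Eif3a, a subunit of a translation initiation factor on chromosome 19, the window from 60844000 to 60844999 went from 87.5% to 55.8%, with all 12 CpGs lower. The read shares were 86.7% (78.4 to 92.7) in WT and 57.7% (48.5 to 66.6) in TetTKO. Windows in Ptchd3 (chromosome 11), Cr2 (chromosome 1) and Itga5, an integrin (chromosome 15), went from 91.1% to 61.9%, from 83.5% to 55.0% and from 85.4% to 58.4%. One beside Paip1 (chromosome 13, 408 bp away), whose protein binds the poly(A)-binding protein, went from 82.9% to 55.9%. A window of chromosome 17 far from genes (95054000 to 95054999) went from 83.7% to 57.4%. Eif3a mRNA was 75.05 FPKM in WT and 83.2 in TetTKO.

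Promoters at the ends were mostly unmethylated in both libraries. Of the 57 genes with a placed promoter, 50 were below 10% in WT and 44 in TetTKO, with medians of 0% and 1.54%. These were 87.7% and 77.2% of them, beside 87.5% and 82.4% of all 9258 placed autosomal promoters. Placement needed at least 5 listed CpGs, so promoters with fewer are not covered. The level was higher in TetTKO for 37 genes (64.9%), beside 49.7% of all placed promoters, and lower for 11. At least 10 points higher were 8 genes, 14.04%, beside 8.36% of all 9258 placed autosomal promoters, and 1 was lower, beside 1.93%. With 8 genes the share is uncertain, and no test was made. For several of them the counting intervals of the 2 libraries overlap, as given below. Of 39 genes with at least 1 FPKM in WT, 3 were higher by 10 points, and of 18 genes under 1 FPKM 5 were. Outside the ends the shares by the same split were 3.13% and 19.5%.

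The promoter of Cr2, the first sequence above, went from 4.28% to 36.3% over 13 listed CpGs, 192 kb from the highest position. The read share was 5.36% of 112 in WT (exact 95% bounds 1.99 and 11.3) and 38.3% of 94 in TetTKO (28.5 and 48.9). In WT 8 of its CpGs were at 0, in TetTKO 3, and 10 were higher and none lower. The CpG at base 90 of the sequence, counted from 1 at the 5′ end, had 0 of 11 reads methylated in WT and 7 of 11 in TetTKO. Cr2 also held one of the windows of largest loss, named above, so its promoter and that window moved in opposite directions. Cr2 mRNA was 0.03 and 0.05 FPKM.

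Mxra8 went from 5.24% to 30.8% over 7 CpGs, with 5 higher and none lower. Tmem196 went from 7.76% to 32.3% over 7 CpGs, 72.8 kb from the highest position, with 6 higher and 1 lower. Wls went from 5.36% to 18.2% over 11 CpGs, with 6 higher and 1 lower. Each of these rests on 5 to 13 reads per CpG. The counting bounds did not overlap for Mxra8 (0.509 to 14.3% and 15.9 to 41.7%), and they did for Tmem196 (1.54 to 19.9% and 19.5 to 48.0%) and Wls (2.40 to 13.5% and 11.5 to 27.3%). Mxra8 mRNA was 1.60 and 1.21 FPKM, and Tmem196 was listed at 0 in both. Also higher were Cd34, a surface protein of blood progenitors (12.8% to 30.5%), Neurod4, a neuronal transcription factor (0 to 14.5%), Cd46, a complement regulator in humans (0.59% to 13.4%) and Ptchd3 (15.8% to 26.6%). The counting bounds of WT and TetTKO overlapped for Cd34 (4.99 to 23.3% and 19.5 to 46.7%). They also overlapped for Neurod4 (0 to 7.87% and 5.55 to 23.2%) and Ptchd3 (7.45 to 24.4% and 18.99 to 34.8%). They did not for Cd46 (0.0232 to 5.006% and 6.49 to 22.9%). Cd34, Cd46 and Cr2 lie in the same end, that of chromosome 1.

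Of the 11 promoters that were lower, Csf2ra was the one lower by at least 10 points, from 33.6% to 17.7% over 13 CpGs, with 9 lower and 2 higher. The read share was 34.0% of 94 in WT (24.6 and 44.5) and 17.9% of 106 in TetTKO (11.2 and 26.6), and these bounds overlap. In Polr3k all 18 CpGs were at 0 in both libraries, over 204 reads in WT and 224 in TetTKO. In Rfc3, a subunit of the replication clamp loader, 21 CpGs went from 0.40% to 4.08%. A few promoters were methylated in both: Gtsf1, a germ line gene, went from 76.2% to 85.2%, the chemokine receptor gene Xcr1 from 68.2% to 66.0% and Tnfrsf4, a receptor of T cells, from 70.9% to 68.8%.

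**Figure D4:**
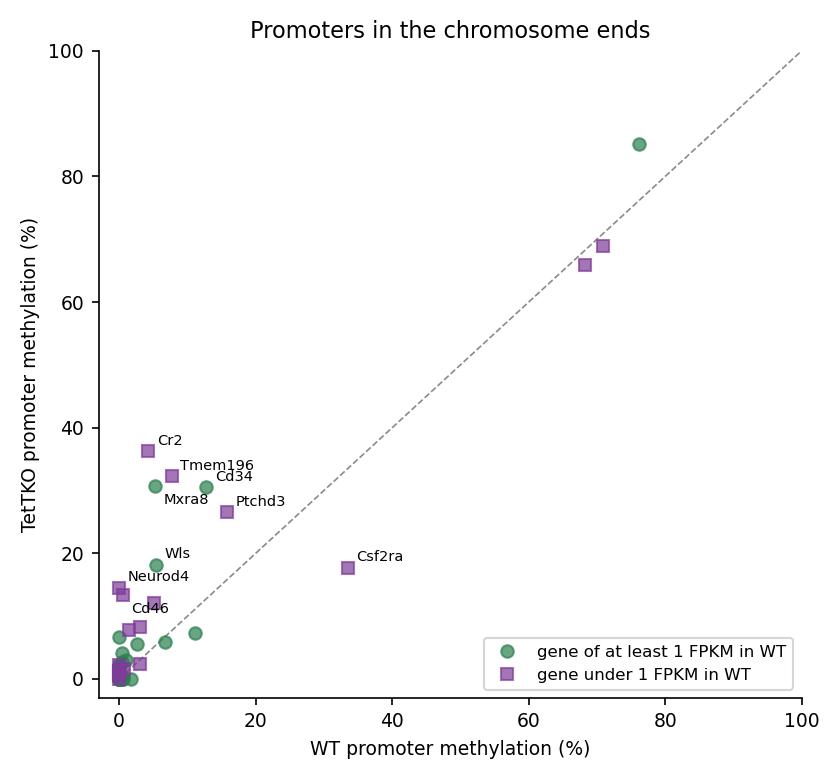
Promoter methylation of the 57 end genes with a placed promoter, WT in percent on the x axis and TetTKO in percent on the y axis, with the diagonal dashed, circles for genes of at least 1 FPKM in WT and squares for the others, 1 library per genotype. Most genes lie near 0 on both axes, the 8 named genes above the diagonal are at least 10 points higher, with Cr2 at 4.28 and 36.3, and Csf2ra lies below it.

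Of the 145 genes that overlapped the ends, 79 (54.5%) had at least 1 FPKM in either RNA library, beside 48.8% of all 22492 genes. The other 66 were under 1 FPKM in both, and 19 of them were listed at 0 in both. Among the silent genes were olfactory and vomeronasal receptors (11 genes) and, on chromosome 9, chemokine receptors (8 genes). In bulk RNA fewer cells that express a gene and less RNA per cell cannot be told apart. Chromosome 4 held the most genes, 31 with 20 of at least 1 FPKM, and the ends of chromosomes 12, 14 and 18 held 1 each. Of 12 genes on chromosome 10, none reached 1 FPKM.

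Expression at the ends hardly moved. Over the 79 genes the median of log2((TetTKO + 1)/(WT + 1)) was 0.003, beside -0.01 over 10984 genes of at least 1 FPKM, and 40 were higher and 39 lower. At least 2-fold higher was 1 gene, beside 1.77% of all genes, and 0 were 2-fold lower, beside 0.847%. With a pseudocount of 0.1 FPKM the counts were 3 higher and 0 lower, beside 4.36% and 1.95%. With 5 FPKM they were 1 and 0, beside 0.364% and 0.255%. With 1 library per genotype none of this could be tested. That gene was Gm7102 on chromosome 19 (61250588 to 61252212), 90.0 kb from the highest position, which went from 11.35 to 69.42 FPKM, a rise of 6.12-fold. Its interval held 2 listed CpGs, too few for a methylation value.

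Next in size, on the log2(FPKM + 1) scale, was Wls at 0.96, with 1.19 FPKM in WT and 3.26 in TetTKO. Its promoter was higher in TetTKO, as given above, and its interval went from 69.9% to 59.5% over 267 CpGs. Fgf15, a fibroblast growth factor, went from 2.09 to 4.26 FPKM, and Ripk4, a protein kinase, from 5.64 to 9.95. The lowest was Amn1 on chromosome 6 at -0.71, from 8.58 to 4.86 FPKM. Over all of chromosome 6, 514 genes had a median of -0.43 and 82.7% were lower, beside 0.002 and 49.5% for 10086 genes of the other autosomes. The 5 measured genes of its end had a median of -0.07. Tcea2, a transcription elongation factor, went from 4.75 to 2.65. With 1 FPKM added these steps are under 2-fold, but the ratio of the FPKM values themselves was 2.74 for Wls and 2.04 for Fgf15. None has a replicate check.

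The 10 genes with the highest FPKM changed by less than 2-fold. Mrpl20 (of the mitochondrial ribosome) had 176 and 177 FPKM in WT and TetTKO, Aurkaip1 83.3 and 76.8, and Atad3a (a mitochondrial ATPase) 80.5 and 67.1. Cpsf3l, of the Integrator complex, had 67.7 and 65.4, Tpd52l2 68.0 and 52.1, and Rfc3 61.7 and 61.3. Gm10052 had 152 and 201, and Gm5643 50.7 and 52.1. Both overlap Hnrnpa1 at the same interval of chromosome 15, so the split of reads among the 3 is uncertain. Cbx5 and Eif3a are given above.

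The gene nearest the highest listed position was silent, under 1 FPKM in both libraries, on 13 of the 19 chromosomes. These 13 include Tmem196, Vmn2r87 (a vomeronasal receptor) and Glycam1 (a milk and lymph node mucin), all listed at 0 in both. Cr2, Gm14496, Mrgprd, 1700008F21Rik, Ptchd3, Gm7120, Fgf14, Gm1976 and Csf2ra had at most 0.83 FPKM. The other 6 were Wls, Rfc3, Klhl17 (2.32 and 3.00 FPKM), Bicd1 (2.08 and 1.71), A630089N07Rik (24.0 and 35.2) and Tmx3 (16.9 and 19.1). Tmem196 and Gm7120 reached the highest position itself. Among these 19 genes, the interval of Csf2ra had the lowest methylation, 16.2% and 13.2% over 172 CpGs.

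Gene intervals with at least 20 listed CpGs numbered 132 and had a median of 59.96% in WT and 54.7% in TetTKO, with 94 lower and 38 higher. The lowest difference was in Depdc1a, from 70.1% to 54.1% over 95 CpGs, and the highest in 4930526D03Rik, from 37.5% to 55.9% over 38 CpGs. Mrgprf, a receptor gene on chromosome 7, went from 40.6% to 53.1% and Pde1b from 43.7% to 54.2%. By distance, the 13 measured genes of the outermost 100 kb had a median log2 change of 0.17. The 10 genes from 100 to 200 kb had -0.08 and the 10 from 200 to 300 kb had 0.07. The 16 genes from 300 to 400 kb had a median of -0.14, with 14 lower, and the 30 beyond had 0.04. The medians thus took no steady course with distance. Of all 10984 genes of at least 1 FPKM, 5598 were lower.

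**Figure D5:**
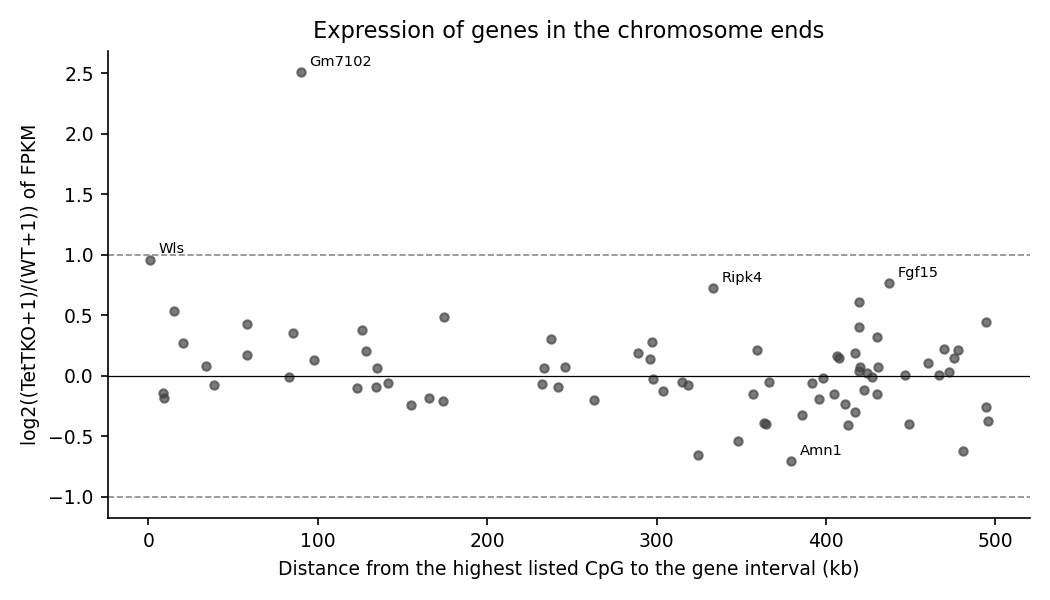
Expression change of the 79 measured end genes, as log2((TetTKO + 1)/(WT + 1)) of FPKM, against distance from the highest listed CpG to the gene interval in kb, 1 point per gene from 1 RNA library per genotype, with dashed lines at 2-fold. Gm7102 lies at 2.51 and the others between -0.71 and 0.96.

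Regulators of methylation and telomeric chromatin lie elsewhere in the genome for the most part. Of 21 such genes 20 had at least 1 FPKM, with a median log2 change of 0.04. Tet1 went from 15.1 to 4.36 FPKM and Tet2 from 14.9 to 4.13, both over 2-fold lower, and Tet3 had 0.32 and 0.27. The methyltransferase gene Dnmt3b was 2-fold higher, from 66.9 to 149 FPKM, and Dnmt3a went from 14.7 to 30.3. Uhrf1, which brings Dnmt1 to replicated DNA, went from 109 to 71.8, and Suv420h2, which methylates histone H4 in heterochromatin, from 14.8 to 9.40. Terf1 went from 25.2 to 32.1, Atrx from 18.2 to 27.9 and Cbx3 from 380 to 228. Their part in the methylation of the ends was not tested.

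As a check of the cell type, 8 of 8 markers of embryonic stem cells had 26.4 to 3344 FPKM, and none was 2-fold changed. Esrrb moved most among those named, from 49.3 to 26.4 FPKM. Of 6 fibroblast markers, 1 had at least 1 FPKM (Thy1, 1.29 and 0.96), and their sum was 1.57 in WT and 2.36 in TetTKO. The other 5 were under 1 FPKM in both libraries but all higher in TetTKO, and their sum went from 0.28 to 1.40 FPKM. Col3a1 went from 0.08 to 0.74, Col1a2 from 0.12 to 0.40, Col1a1 from 0.07 to 0.19, Fbln5 from 0.01 to 0.03 and Dcn from 0 to 0.04. Their part in the differences above was not tested.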

How the data were processed

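Per the labels' protocols, bisulfite DNA was sequenced as read pairs of 110 bp and ribosome-depleted RNA as single reads of 50 bp. The submitters' processing notes name Trim Galore, Bismark 0.7.9, Bowtie, SAMtools, TopHat2 2.0.2, Cufflinks 2.0.2 and mm9. Their settings, and the gene models, were not stated there. For each CpG the authors deposited a methylated fraction and 2 counts, methylated reads and coverage, and the deposited counts were used. Expression was deposited by the authors as FPKM per gene, with no depth, so no counting interval was computed for RNA.

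Levels were 100 times methylated over all reads, averaged over CpGs of a fixed 1 kb window. Windows with at least 5 CpGs in the last 500 kb before the highest listed position of each autosome were kept. Genes were compared as log2 of FPKM plus a pseudocount of 1, which understates low genes. Gene values of at least 1 FPKM in either library were used. Promoters were placed where at least 5 listed CpGs all fell on CG dinucleotides in the RefSeq sequence, at one place only. Windows were named as the 6 largest gains and 6 largest losses with at least 10 CpGs and 60 reads, and the highest window of each chromosome. Genes were named when 2-fold changed, among the 10 highest in FPKM, or nearest the highest position, and 1 gene is not reported here. Other windows, genes and promoters in the text were chosen after their values were seen. The members and lists were chosen with earlier results of these data known. The window and gene steps were tested on simulated data. Python 3.11.15, pandas 2.3.3, numpy 2.4.6, scipy 1.17.1 and matplotlib 3.10.9 were used.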

Additional observations from a re-analysis of the deposited data

How the results depend on the processing

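Requiring at least 10 CpGs per window left 982 windows, with 58.99% in WT, 57.44% in TetTKO, a difference of -1.546 points, an end minus interior difference of 0.09448, which reversed, and 6 gains and 1 loss of 30 points. Only CpGs with at least 10 reads left 604 windows, with 60.44%, 56.63%, -3.811 and -1.876 points, and 5 gains and 1 loss. These settings kept fewer windows. The last 250 kb (1728 windows) gave 71.18% and 65.76% with 13 gains and 11 losses. The last 1 Mb (7607 windows) gave 70.74% and 65.46% with 50 and 53. Of all autosomal windows 0.667% gained and 0.63% lost 30 points. The counts come from sets of different size and are no result about the ends. Without chromosome 6 the levels were 69.4% and 64.26%. The end minus interior difference was -0.2575 points with the interior weighted by CpG number and 0.4267, reversed, against 500 kb to 1 Mb. It was -1.65 points without chromosomes 4, 7 and 15, left out after seeing the data. A threshold of 20 points gave 90 gains and 253 losses, where 2.39% and 6.39% of all autosomal windows passed. Genes 2-fold changed numbered 3 of 79 with a pseudocount of 0.1 FPKM (C2cd2, Gm7102 and Wls). Of all genes 4.36% were higher and 1.95% lower at that pseudocount. They numbered 3 of 126 over the last 1 Mb (Gm7102 higher, Stmn3 and Zbtb46 lower), beside 1.77% and 0.847% of all genes. Beyond construction, the cause was not tested. The other 25 values stayed within a tolerance, and the differences among them kept their sign. The tolerance was 0.172 points for WT levels, 0.163 for TetTKO levels and 0.237 for differences. It came from the pooled counting intervals, which are too narrow. For counts it was a fixed ratio to the main count. No paired analysis was possible because each genotype had 1 library per assay and the labels give no replicate numbers. Depth of 9.38 and 10.7 reads per CpG limits single CpGs and windows, and without replicates no value has an error between cultures.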
